A study of Mus musculus with 4 samples.

Results

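The data described here are the barcodes of single-cell RNA sequencing of mouse bone that carried transcripts of megakaryocytes and platelets. A barcode stands for the contents of 1 droplet, and each captured transcript molecule in it is counted once by its unique molecular identifier (UMI). A barcode was a member when it held at least 5 UMIs of Pf4, Itga2b, Gp1bb and Ppbp together, with at least 2 of these 4 genes seen, and fewer than 3 UMIs of the monocyte genes Csf1r, Ms4a6c and Ccr2. It also had to hold at least 1000 UMIs and 200 genes, at most 10% mitochondrial UMIs and at most 0.2% UMIs of the Hba- and Hbb- haemoglobin genes, with no upper limit on UMIs. Of 40003 deposited barcodes 31545 passed these quality limits, and 106 of the latter were members.

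All 4 libraries came from wild-type mice, 1 library per mouse, and from bone tissue. Ctrl mice (n = 2) had no treatment and HLU mice (n = 2) underwent hindlimb unloading, in which the tail is suspended for 28 days so that the hind limbs bear no weight. Tibiae and femurs were flushed of marrow and digested with enzymes, so the members come from what remained with the bone and not from whole marrow. The sources differ on the age of the mice (postnatal day 28 or 8 weeks), and none is given preference here. Members numbered 26 in Ctrl replicate 1, 12 in Ctrl replicate 2, 29 in HLU replicate 1 and 39 in HLU replicate 2. The deposited matrices of these libraries held 57925383, 61296053, 47819046 and 99849070 UMIs, so HLU replicate 2 stood apart in depth. The members themselves held 211055, 223682, 628416 and 912174 UMIs in that order. Between 72 and 95 barcode sequences of each library recurred in another library, but 0 members shared a barcode with a member of another library.

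Megakaryocytes are the large polyploid cells of the marrow that release platelets into the blood. They arise from progenitors under thrombopoietin, copy their genome without dividing, fill alpha granules and dense granules with cargo, and extend proplatelets that break into platelets without a nucleus. Megakaryocytes are known to sit near bone surfaces and to secrete factors that act on bone cells, among them transforming growth factor beta.

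Each of the 4 genes of the marker rule encodes a protein of platelets. Pf4 (platelet factor 4, chr5:90772435-90773383, mm10) and Ppbp (pro-platelet basic protein, chr5:90768518-90770063) encode chemokines stored in alpha granules. They are neighbours on the forward strand with 2371 bases between them. Itga2b (chr11:102453297-102470122, reverse strand) encodes the alpha subunit of the fibrinogen receptor, and Gp1bb (chr16:18620317-18622403, reverse strand) a subunit of the receptor for von Willebrand factor. Because these genes are the known basis of the rule, the 250 bases before the start of each are shown, 5′ to 3′ on the strand of the gene, from RefSeq on GRCm38.p6. Capitals mark a match to the GATA motif (AGATAA or AGATAG or TGATAA or TGATAG) or to the ETS motif (CCGGAA or CAGGAA), searched on both strands. GATA and ETS factors are known regulators of megakaryocyte genes.
Pf4, chr5:90772185-90772434: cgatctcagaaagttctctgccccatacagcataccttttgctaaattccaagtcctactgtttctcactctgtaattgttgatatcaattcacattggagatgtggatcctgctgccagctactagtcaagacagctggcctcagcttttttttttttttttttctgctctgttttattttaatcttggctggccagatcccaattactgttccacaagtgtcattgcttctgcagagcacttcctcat
Ppbp, chr5:90768268-90768517: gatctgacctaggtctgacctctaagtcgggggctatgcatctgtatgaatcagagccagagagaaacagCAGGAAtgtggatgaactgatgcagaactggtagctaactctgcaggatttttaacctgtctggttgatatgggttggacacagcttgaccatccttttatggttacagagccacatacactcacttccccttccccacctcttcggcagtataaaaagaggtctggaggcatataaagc
Itga2b, chr11:102469884-102470133: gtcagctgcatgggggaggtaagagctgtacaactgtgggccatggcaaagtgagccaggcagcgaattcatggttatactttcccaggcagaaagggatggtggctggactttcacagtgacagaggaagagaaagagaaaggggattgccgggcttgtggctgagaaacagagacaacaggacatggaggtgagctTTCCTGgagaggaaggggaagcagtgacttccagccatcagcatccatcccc
Gp1bb, chr16:18622404-18622653: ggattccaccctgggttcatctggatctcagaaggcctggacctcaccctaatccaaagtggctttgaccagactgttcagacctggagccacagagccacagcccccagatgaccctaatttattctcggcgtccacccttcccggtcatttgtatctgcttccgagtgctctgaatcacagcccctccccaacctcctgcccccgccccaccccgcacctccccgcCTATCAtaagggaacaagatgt
Ppbp held an ETS match 180 bases before its start, Itga2b an ETS match on the opposite strand 52 bases before its start, and Gp1bb a GATA match on the opposite strand 22 bases before its start. The window of Pf4 held 0 matches. Starts are those of RefSeq; that of Itga2b lies inside the gene as GENCODE gives it above, so most of its window overlaps that gene. Among 32851 mouse promoters of this length 26.5% held the GATA motif and 35.1% the ETS motif, so the matches describe these windows and no more.

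Pf4 made up 91.1% of the marker UMIs of the members and was seen in all 106 of them, with a median of 72 UMIs and a range of 1 to 2712. Its level was 12854.5 and 8901 in Ctrl replicates 1 and 2 and 9999.8 and 18058 in HLU replicates 1 and 2, in UMIs per 1000000 UMIs of the members (ppm). A 3′ UMI counts a molecule irrespective of gene length, so such levels can be set side by side between genes. Itga2b was seen in 100 members (median 6 UMIs, highest 158), Ppbp in 51 (highest 96) and Gp1bb in 28 (highest 9). The commonest combination was Pf4 with Itga2b alone, in 49 members. A further 24 members added Ppbp, 22 held all 4 genes, 5 held Pf4, Itga2b and Gp1bb, 5 held Pf4 and Ppbp, and 1 held Pf4 and Gp1bb. These values chose the members and are given as a description.

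The rule cut through few barcodes at its lower edge. Among otherwise eligible barcodes with at least 2 of the genes seen, 32 held 2 marker UMIs, 5 held 3 and 1 held 4, whereas 3 members held 5, 4 held 6, 4 held 7, 3 held 8 and 1 held 10. A further 40 passing barcodes held 5 or more UMIs of only 1 of the genes. Of 148 barcodes that met the marker part of the rule, 26 were removed by the monocyte genes (1, 9, 10 and 6 in Ctrl replicates 1 and 2 and HLU replicates 1 and 2), 12 by the minimum of 1000 UMIs, 3 by haemoglobin and 1 by the mitochondrial or gene limit.

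Checked on genes outside the rule, the members carried megakaryocyte genes widely but hardly any of a platelet tubulin. Itgb3, the partner subunit of Itga2b, was seen in 83 members, the transcription factor Nfe2 in 79, the platelet receptor Treml1 in 66, Gata2 in 59, Vwf (von Willebrand factor) in 57, the stem cell factor receptor Kit in 56, Gata1 in 52 and Gp9 in 38. For comparison, these genes and the rule genes Pf4, Itga2b and Ppbp were counted in 2209 B cell barcodes. Those held at least 5 UMIs of at least 2 B cell genes and were pooled over the libraries. Their median depth was 3827 UMIs against 15594.5 in the members. There Itgb3 was seen in 11.8%, Nfe2 in 10.2%, Kit in 4.89%, Pf4 in 4.48%, Itga2b in 1.72%, Vwf in 0.407%, Ppbp in 0.272%, Treml1 in 0.226%, Gp9 in 0.181% and Gata1 in 0.136%. Each of these shares lay below that of the members, at a lower depth. For Pf4, Itga2b and Ppbp the rule favoured this outcome, as it chose the members by them. How far the transcripts in the B cell barcodes were free RNA was not tested. Tubb1 (chr2:174450695-174457882), which encodes the beta tubulin of platelet rims, gave only 5 UMIs in 2 members and 0 in the B cell barcodes. Both of those members were deep, with 48587 and 82486 UMIs.

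The members ranged from sparse barcodes to some of the deepest of the series. Their median depth was 2565 UMIs in Ctrl replicate 1, 19750.5 in Ctrl replicate 2, 19287 in HLU replicate 1 and 18838 in HLU replicate 2, against 6312, 5957, 3883.5 and 6656.5 in all passing barcodes. Ctrl replicate 1 was thus the exception among the 4, with members shallower than its other barcodes. Its members under 3000 UMIs numbered 15 of 26, against 1 of 12, 1 of 29 and 0 of 39 in the other libraries. The members held medians of 1064.5, 4098, 4538 and 4081 genes, against 1685, 1712, 1347 and 1543.5 in all passing barcodes. Above 40000 UMIs lay 10 members, whose median marker share of 2.28% of UMIs exceeded the 1.01% of the 54 members from 10000 to under 40000 UMIs the 0.390% of the 25 members from 3000 to under 10000 UMIs and the 1.11% of the 17 members under 3000 UMIs. Scrublet, a caller of droplets with more than 1 cell, marked 4 and 2 members of Ctrl replicates 1 and 2 and 0 of the HLU libraries; these stayed in unless stated.

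**Figure D1:**
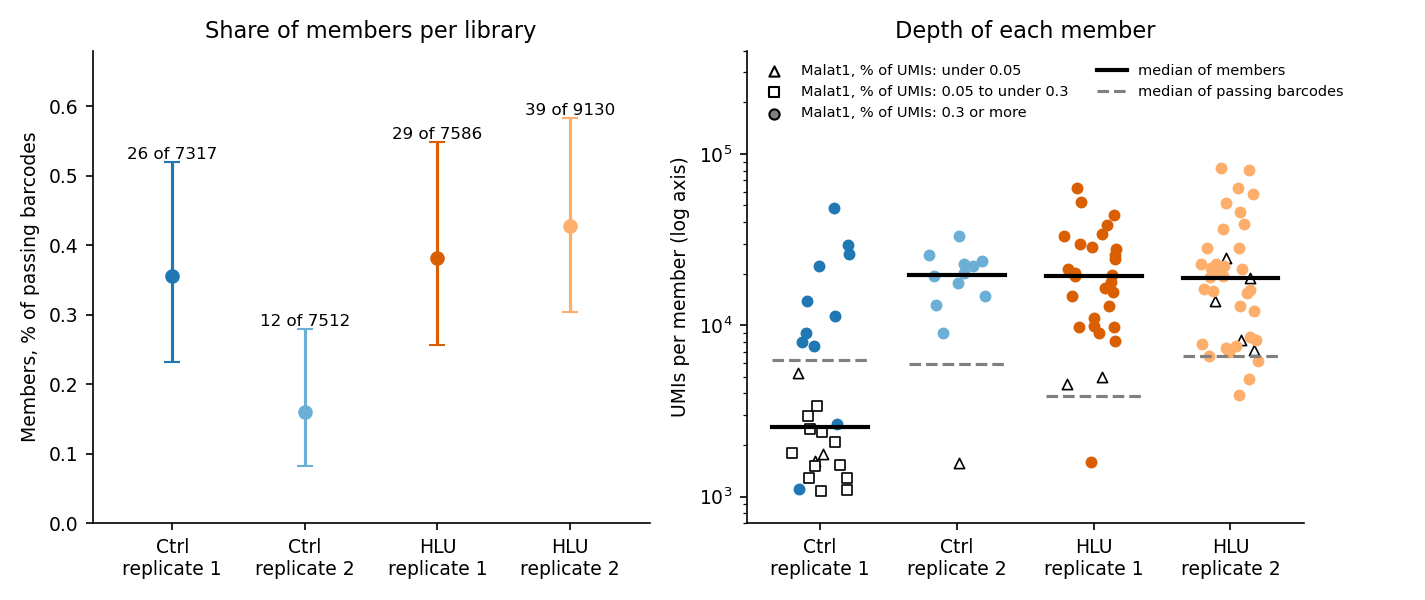
Left, members as a percentage of passing barcodes in each library, with the exact 95% binomial interval (counting error only) and the counts above it. Right, UMIs of each member on a log axis, with symbols for the share of the nuclear RNA Malat1, black lines for the median of the members and dashed grey lines for the median of all passing barcodes; the shallow members lie mostly in Ctrl replicate 1, whose median is 2565 UMIs.

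Malat1, a long noncoding RNA retained in the nucleus, separated the members into unlike profiles. The limits of 0.05% and 0.3% of UMIs were set after the values were seen, so the profiles are a description. Under 0.05% lay 11 members (3, 1, 2 and 5 in Ctrl replicates 1 and 2 and HLU replicates 1 and 2), from 0.05% to under 0.3% lay 12, all of them in Ctrl replicate 1, and 83 (11, 11, 27 and 34) lay at 0.3% or more. In the other passing barcodes the median was 1.97%, 1.55%, 1.06% and 0.766%, and 0.535%, 0.653%, 1.40% and 1.03% of those barcodes lay under 0.05%.

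The 11 members poorest in Malat1 carried more of several platelet genes outside the marker rule than the 83 members of 0.3% or more. Gp9, a subunit of the von Willebrand receptor, stood at 1273, 3203, 838 and 619 ppm in those of Ctrl replicates 1 and 2 and HLU replicates 1 and 2, against 22.3, 36.0, 24.2 and 112 in the 83. Treml1 stood at 1389, 641, 943 and 1334 ppm against 189, 284, 236 and 231. The actin-binding peptide gene Tmsb4x, abundant in platelets, stood at 57421, 118514, 53128 and 58958 ppm against 11741, 10602, 9810 and 23840. These 3 genes were thus higher in all 4 libraries, although Ctrl replicate 2 gave only 1 such member. Gp5 of the same receptor stood far higher in the HLU libraries but not in Ctrl, where Ctrl replicate 1 gave 1 UMI, at 116, 0, 1257 and 1086 ppm against 106, 85.5, 98.6 and 102. HLU replicate 2 held 72713 of the 92455 UMIs of the 11. The rule itself used Ppbp, at 3861 ppm pooled against 227, and Pf4, at 24304 against 13419, and a shallow barcode enters only with a high share of them. In Ctrl replicate 1 Pf4 stood at 13082 against 13072 ppm. Single progenitor genes, picked after values were seen, ran the other way. Kit was seen in 0 of the 11 and in 55 of the 83, Gata2 in 1 and 58, Myb in 0 and 63 and the proliferation marker Mki67 in 0 and 33, although Tubb1 was at 0 in the 11 as well. The whole list of 11 early progenitor genes took 0.0232%, 0%, 0.136% and 0.0633% of UMIs in the Malat1-poor members of Ctrl replicates 1 and 2 and HLU replicates 1 and 2, against 0.0819%, 0.0959%, 0.117% and 0.121%, so HLU replicate 1 did not follow. With 92455 summed UMIs in these 11 members, a count of 0 allows up to 32.4 ppm, so the level of Kit in the 83, at 130 ppm, lay above that limit. Their median depth was 5242 UMIs against 19287, and their median mitochondrial share was 0.398% against 2.11%; the part of depth in the counts of members with a UMI was not tested.

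The 12 members between these limits, all of Ctrl replicate 1, were shallow and mixed. They had a median of 1658.5 UMIs, Pf4 at 11061 ppm, and Kit in 1 member. A single member of 3377 UMIs held all of their 22 Ppbp UMIs and 93 of their 253 Pf4 UMIs, with a marker share of 3.67% and 0.207% skeletal UMIs, values like those of the 11. Since only Ctrl replicate 1 had such members, they are set beside its own 11 members of 0.3% or more. Of the mitotic genes looked at, Ube2c and Ccnb2 stood at 393 ppm each, on 9 UMIs each, against 61.3 and 39.0, and Mki67 and Top2a at 131 ppm each, on 3 UMIs each, against 22.3 and 22.3. Transcripts of the skeletal list made up 2.02% of UMIs against 1.99%, and neutrophil transcripts 2.86% against 1.51%. The near-equal skeletal sums came from unlike spreads. Single members held 0.207% to 4.92% skeletal UMIs in the 12 and 0.0315% to 15.8% in the 11. Most skeletal UMIs of the 11 lay in members with 1499, 1265 and 613 of them. The part of neutrophil transcripts in the profile was not tested.

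**Figure D2:**
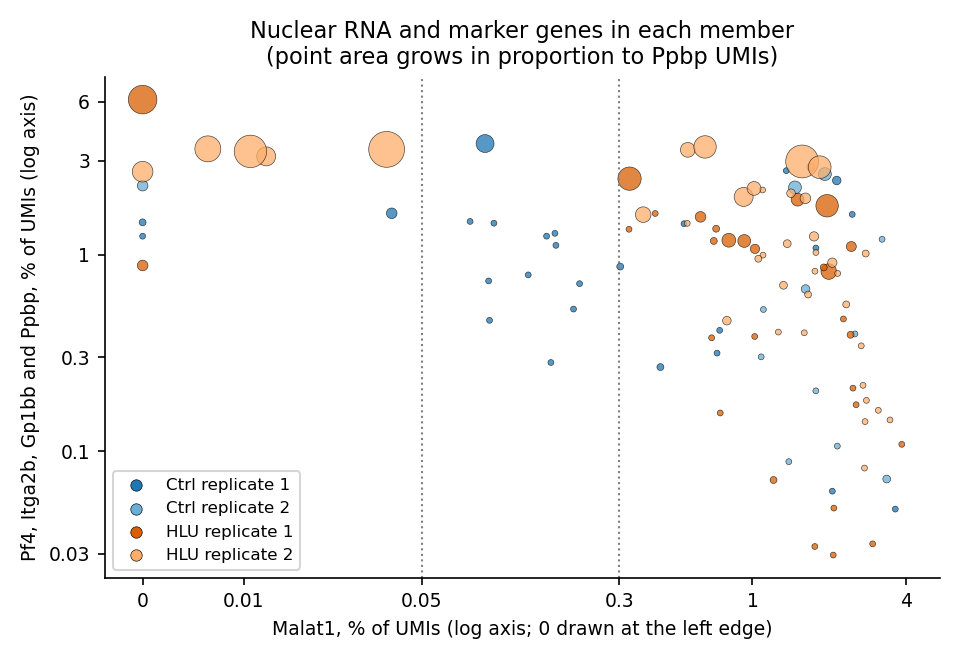
Each point is a member, placed by its share of Malat1 (horizontal, log axis with 0 at the left edge) and its summed share of the 4 marker genes (vertical, log axis); point area grows with Ppbp UMIs and dotted lines mark 0.05% and 0.3%. The points left of 0.05% are the 11 Malat1-poor members. Of these 10 held Ppbp, though 2 members of Ctrl replicate 1, of 1613 and 1783 UMIs, held only 0 and 1 UMIs of it. The blue points in the middle, all small but 1, are the 12 of Ctrl replicate 1.

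The marker genes took a median of 0.972% of the UMIs of a member, from 0.0295% to 6.14%. Medians by library were 1.10%, 0.460%, 0.860% and 1.02% for Ctrl replicates 1 and 2 and HLU replicates 1 and 2, and their ranges overlapped. Along this axis some other genes of the lineage moved in opposite directions. This is a description, because the marker genes were counted in the same barcodes. From the 10 members under 0.1% over the 44 of 0.1% to under 1% to the 52 of 1% or more, Vwf went from 0 over 113 to 327 ppm, Itgb3 from 133 over 402 to 667, Gp9 from 0 over 24.3 to 143, Treml1 from 26.5 over 123 to 392 and Gata1, a factor of red cell and megakaryocyte genes, from 59.7 over 59.1 to 118. Kit went down over the same steps, from 298 over 193 to 69.6 ppm, though in Ctrl replicate 1 it was 275, 0 and 172 and in Ctrl replicate 2 it was 91.8, 167 and 180. Gata2, a factor of early progenitors, went from 232 over 170 to 117 ppm when pooled, but only the HLU libraries went down (326, 323 and 200, and 409, 120 and 64.8), against 45.8, 0 and 142 and 61.2, 130 and 120 in Ctrl replicates 1 and 2. Car2, a carbonic anhydrase, went from 1253 over 386 to 210 ppm, though its first value rested on HLU replicate 1 (1956 ppm there against 45.8, 337 and 409 elsewhere). In Ctrl replicates 1 and 2 Car2 was highest in the middle range, at 45.8, 289 and 172 and at 337, 437 and 120 ppm. Cd34 stood at 26.5, 59.1 and 40.0 ppm pooled and Nfe2 at 139, 122 and 163. The whole list of early progenitor genes took 0.148%, 0.141% and 0.0910% of UMIs pooled. It went down in both HLU libraries but not in Ctrl, at 0.0687%, 0.0235% and 0.0971% and at 0.0735%, 0.105% and 0.0912% in Ctrl replicates 1 and 2. The first value of Gata1 rested on 9 UMIs, all in HLU replicate 1, where Gata1 was 101, 52.8 and 97.5 ppm. Itgb3 in the same library was highest in the middle range, at 169, 722 and 442 ppm, and Treml1 in Ctrl replicate 1 was lowest there, at 137, 90.4 and 351. Skeletal transcripts took 2.43%, 0.237% and 0.0349% of UMIs in the same order, and neutrophil transcripts 1.05%, 2.28% and 0.281%, and their part in these gradients was not tested.

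**Figure D3:**
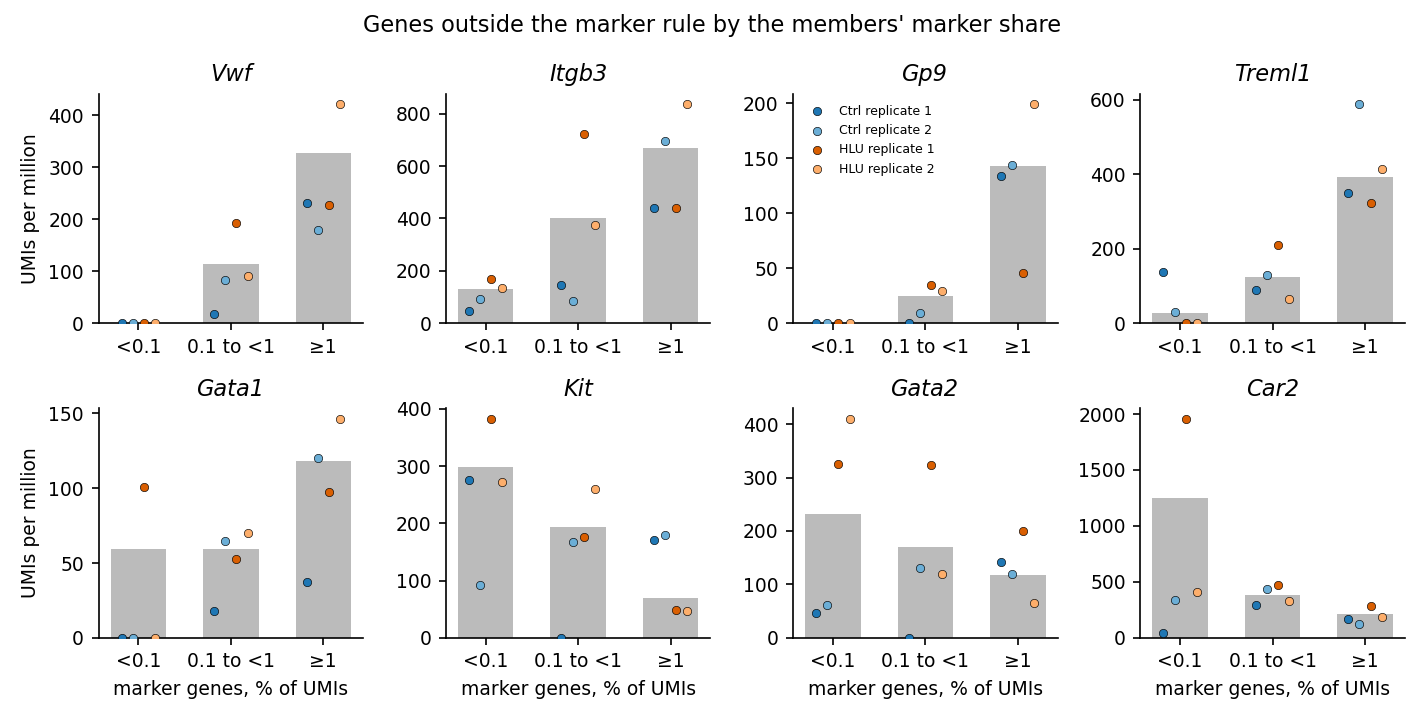
UMIs per 1000000 UMIs (ppm) of 8 genes in members grouped by the share of the marker genes (under 0.1%, 0.1% to under 1%, 1% or more of UMIs); bars pool the 4 libraries and points show each library. In the pooled bars Vwf, Gp9 and Gata1 are highest at the right, and Kit, Gata2 and Car2 at the left, but the Ctrl points of Kit, Gata2 and Car2 do not all follow.

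Compared with the other passing barcodes of the same library, the members were set apart most by signalling receptors and granule genes, which is a description since the markers define both sides. Of 4003 genes with at least 20 ppm in the members of every library, 136 were at least 5 times and 92 at least 10 times higher in the members of every library. The thrombin receptor gene F2rl2 (chr13:95696853-95702739) was among the leaders, at 294, 250, 315 and 277 ppm in the members of Ctrl replicates 1 and 2 and HLU replicates 1 and 2, against 0.160, 0.186, 0.400 and 0.469 in the others. Treml1 stood at 261, 286, 247 and 319 ppm in the members. Dense granule genes were among them too, with the transporter Slc35d3 at 298, 201, 275 and 235 ppm and the secretory GTPase Rab27b at 701, 635, 867 and 740. Others of the leaders were Serpina3b, Cavin2, Kcnj5, Robo3, Slc14a1, Pcyt1b, Trpc6, Mrvi1, Mycn, Angpt1, Mmrn1, Pdzk1ip1, Gp5 and Gp9. Mmrn1 encodes an alpha-granule protein that binds factor V, and Angpt1 the ligand of the Tie2 receptor.

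The first comparison of the design asked whether unloading changed the abundance of these barcodes. Members made up 0.355% (95% exact binomial interval 0.232 to 0.520) and 0.160% (0.0826 to 0.279) of passing barcodes in Ctrl replicates 1 and 2 and 0.382% (0.256 to 0.549) and 0.427% (0.304 to 0.583) in HLU replicates 1 and 2. Both HLU libraries lay above both Ctrl libraries, but the interval of Ctrl replicate 1 overlapped both HLU intervals. The interval of Ctrl replicate 2 overlapped that of HLU replicate 1. The means were 0.405% ± 0.0317 (SD, n = 2) for HLU and 0.258% ± 0.138 (SD, n = 2) for Ctrl. The difference of 0.147 percentage points had p = 0.333 in a two-sided exact permutation test over libraries, the smallest p that 2 against 2 libraries allow. All members were also set against the barcodes with at least 3 UMIs of the blood cell genes Ptprc, Coro1a and Laptm5. The numerators stayed at 26, 12, 29 and 39 members, so the ratios need not be shares of those barcodes. They were 0.921% and 0.296% in Ctrl and 0.436% and 0.470% in HLU, so the difference changed sign to -0.155 points. Barcodes with at least 5% of UMIs from a list of skeletal genes were 1860 and 1470 in Ctrl against 6 and 42 in HLU, and their part in the change of sign was not tested. With each barcode thinned to 1000 UMIs, the marker minimum lowered to 2 UMIs and no monocyte limit, the shares were 0.260%, 0.133%, 0.290% and 0.252%, and the groups overlapped. Among barcodes of at least 3000 UMIs, members and denominator alike, the shares were 0.201%, 0.1999%, 0.594% and 0.522%, a difference of 0.357 points. This limit was not planned in advance. It left out 15 of 26 and 1 of 12 Ctrl members and 1 of 29 and 0 of 39 HLU members. With members under 1% skeletal UMIs the difference was 0.270 points, but this limit, also not planned, could only widen it. It removed 16 and 2 Ctrl members and 0 HLU members, and the denominator was not filtered. Without Ctrl replicate 2 the difference was 0.0494 and without Ctrl replicate 1 it was 0.245 points.

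The second comparison asked which genes differed between HLU and Ctrl when UMIs were summed over the members of each library. In edgeR's quasi-likelihood test 126 of 5898 genes had an adjusted p under 0.05, which is 2.14% of the genes tested, and all 126 were lower in HLU. At an unadjusted p under 0.05 lay 448 genes. The 7 genes of the rule were left out of these counts. The median log2 fold change of all genes was 0.0059, and 37.7% of them had both HLU libraries on one side of both Ctrl libraries. Separate mice stand behind the libraries, and with 2 per group the p-values measure the spread between these libraries. In a sum, fewer cells of a type and less RNA per cell cannot be told apart.

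Genes of cartilage, bone and connective tissue were among those that fell. All 12 tested genes of the skeletal list of 16 fell, against 2.14% of all genes tested. Dcn, the matrix proteoglycan decorin, stood at 11317 and 1098 CPM (counts per 1000000, with library sizes scaled by edgeR) in the Ctrl members and at 4.78 and 2.22 in the HLU members, a log2 fold change of -10.75 ± 1.24 (SE, edgeR, adjusted p = 0.00216). Prg4, the lubricant of joint surfaces, gave 426 and 90 UMIs against 4 and 1, and the cartilage genes Comp and Cytl1 gave 463 and 74 against 0 and 2 and 996 and 16 against 2 and 1. The collagen genes Col2a1 (27 and 349 UMIs) and Col3a1 (10 and 245) and the keratan sulphate proteoglycan Lum (11 and 105) gave 0 in both HLU libraries. In Ctrl replicate 2, 342 UMIs of Col2a1 and 240 of Col3a1 lay in 1 member called a doublet, and 81 of Lum in another member. Ctgf, a secreted growth factor also known as Ccn2 and on no list, gave 281 and 146 UMIs against 0 and 0, at least 570-fold lower against a floor of 3 UMIs over the group (edgeR, adjusted p = 0.000994). Of the 126 genes, 112 were higher in the skeletal barcodes of the Ctrl libraries than in the Ctrl members, against 1244 of the 5898 tested, and 47 gave 0 UMIs in both HLU libraries.

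Skeletal transcripts were spread over all Ctrl members but held mostly by a few. The list took 1.95% and 0.592% of member UMIs in Ctrl replicates 1 and 2 and 0.00207% and 0.00153% in HLU replicates 1 and 2. In the other passing barcodes it took 4.04%, 3.66%, 0.0593% and 0.0875%, and in barcodes under 1000 UMIs 3.05%, 2.79%, 0.0704% and 0.128%. Summed over the libraries its most abundant gene in the members was Dcn, and Lepr was at 0 in all 4 libraries. Every Ctrl member held a skeletal UMI (26 of 26 and 12 of 12), against 5 of 29 and 11 of 39 in HLU. Medians were 2.03% and 0.0888% of UMIs in the Ctrl members, and 16 and 2 Ctrl members held 1% or more against 0 in HLU. For 95 of the 126 genes, at least 50% of the Ctrl UMIs came from 1 barcode of each Ctrl library. A barcode of Ctrl replicate 2 with 23601 UMIs, 15 Pf4 UMIs, 3.75% skeletal UMIs and a doublet call was the highest of its library for 75 of the 126, and a barcode of Ctrl replicate 1 with 26038 UMIs, 73 Pf4 UMIs and 2.35% skeletal UMIs for 56.

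With members of 1% or more skeletal UMIs left out, 12 genes had an adjusted p under 0.05 in edgeR, all lower in HLU: Dcn, Mmp3, Prg4, Ctgf, 1500015O10Rik, Sparc, Myl9, Chad, Cytl1, Comp, Ltf and Bhlhe40. Of these, Dcn, Prg4, Comp and Cytl1 are on the skeletal list, and Myl9 and Ltf were lower in Ctrl skeletal barcodes than in Ctrl members. Dcn was then seen in 10 of 10 and 10 of 10 Ctrl members, with 106 and 63 UMIs, against 1 of 29 and 2 of 39 HLU members. Leaving out the members called doublets gave 54 genes, all lower in HLU, and leaving out HLU replicate 2, the deepest library, gave 78, all lower. Other settings also called genes that were higher in HLU, 84 of 384 without HLU replicate 1 and 33 of 394 with no filter on low counts. With at least 10 counts in every library 0 of 2509 genes were called in edgeR (185 at an unadjusted p under 0.05), a filter that drops every gene under 10 UMIs in any library. The part of skeletal transcripts in the 126 genes was not tested.

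**Figure D4:**
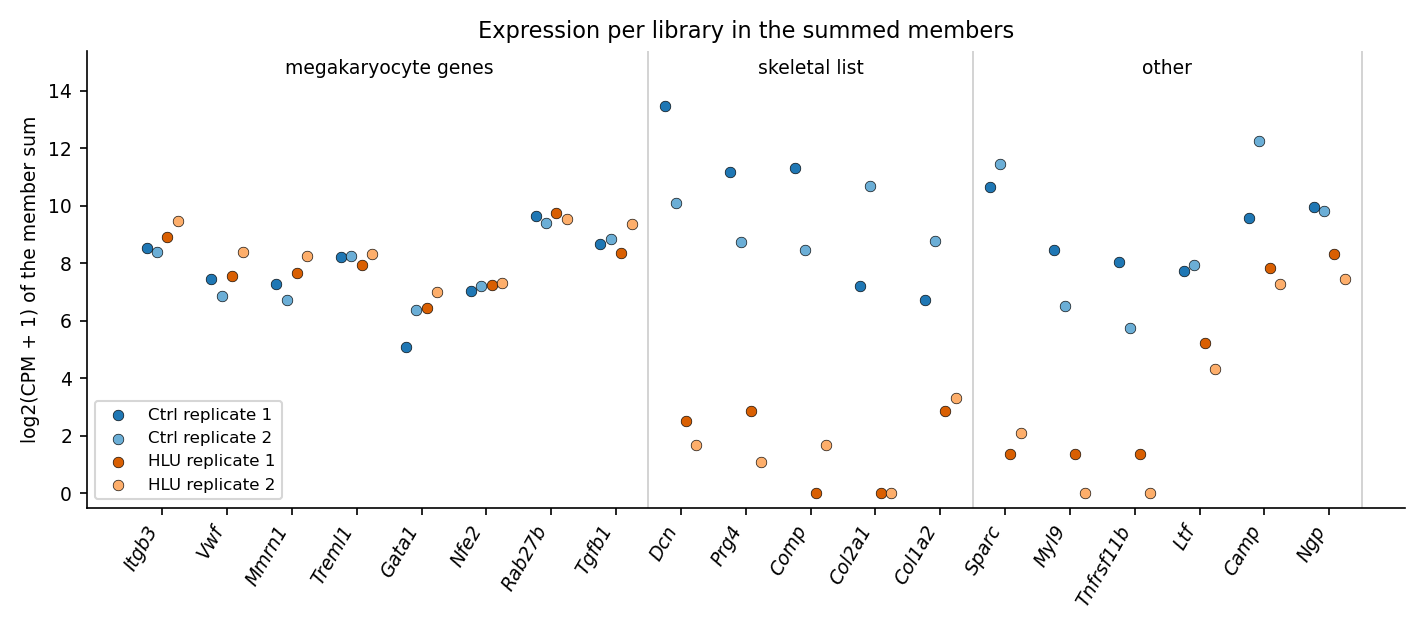
Level of named genes in the summed members of each library as log2(CPM + 1), where 0 means no UMI. The skeletal genes, Sparc, Myl9 and Tnfrsf11b lie far lower in both HLU libraries.

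Of 153 genes tested on the megakaryocyte lists, 4 fell: Sparc, Myl9, Tnfrsf11b and Bmp6. That is 2.61%, near the 2.14% of all genes tested. Sparc (chr11:55394500-55423183) encodes osteonectin, which alpha granules and bone matrix both contain. It gave 292 and 589 UMIs in the Ctrl members against 1 and 3 in HLU, a log2 fold change of -9.60 ± 0.618 (SE, edgeR, adjusted p = 0.000259). Of those UMIs 221 and 504 lay in 1 barcode of each Ctrl library. Without members of 1% or more skeletal UMIs its log2 fold change was -5.30.

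Myl9 (chr2:156775420-156781658), the myosin light chain that contracts in platelets and smooth muscle, behaved unlike the skeletal genes. All 65 UMIs of Ctrl replicate 1 lay in 1 member and all 19 of Ctrl replicate 2 in 1 member, against 1 and 0 UMIs in the HLU libraries (ratio 328, counting interval 57.3 to 13103, edgeR, adjusted p = 0.00352). Both members were small and poor in Malat1, with 5242 and 1561 UMIs and 2 and 0 Malat1 UMIs, and they held 6 Ppbp UMIs each. They also held 40 and 7 UMIs of the tropomyosin gene Tpm2. The HLU member with the highest marker share, at 4541 UMIs, 212 Pf4 UMIs and 60 Ppbp UMIs, held 1 Myl9 UMI and 0 of Tpm2. A call on Myl9 thus rested on 1 member per Ctrl library; this was looked at after its values were seen.

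The list of signals from megakaryocytes to bone and marrow held the remaining pair. Tnfrsf11b, which encodes the RANKL decoy osteoprotegerin, gave 48 and 11 UMIs in Ctrl, in 15 and 3 members, against 1 and 0 in HLU (ratio 230, counting interval 39.8 to 9248, edgeR, adjusted p = 0.00701). It was 9.72 times higher in Ctrl skeletal barcodes than in Ctrl members, and 19 and 9 of its UMIs lay in the members of 15.8% and 1.17% skeletal UMIs. Bmp6, a bone morphogenetic protein, gave 10 and 7 UMIs against 0 and 0, at least 22.5-fold lower (edgeR, adjusted p = 0.0171). It was 4.48 times higher in Ctrl skeletal barcodes, and 8 and 7 of its UMIs lay in the members of 2.35% and 3.75% skeletal UMIs, the latter called a doublet. With members of 1% or more skeletal UMIs left out, neither gene was called, as both were too low to be tested. Of the 21 genes on this list 10 were tested, 2 fell and 0 rose, against 126 and 0 of all 5898 genes tested. The list had 4 positive fold changes and a median of -0.87, which turned positive in 6 of 20 alternatives. Tgfb1, the transforming growth factor, stood at 405 and 460 CPM in Ctrl and 331 and 667 in HLU. Thbs1 (thrombospondin) stood at 471 and 149 against 171 and 172 CPM, Angpt1 at 159 and 134 against 212 and 272, and the cytokine Il1b at 153 and 62.3 against 113 and 514. None of these 4 passed the test, and for Tgfb1, Thbs1 and Il1b the groups overlapped.

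The lists that define the lineage held 0 genes called higher in HLU, as did the whole table (0 of 5898). Of the adhesion and signalling receptors 18 were tested, with 0 called, 13 positive fold changes and a median log2 fold change of 0.28. The alpha-granule list had 15 tested, with Sparc called, 9 positive and a median of 0.21, and the dense-granule list 10 tested, 0 called, 7 positive and a median of 0.16. The cytoskeleton and proplatelet list had 22 tested, with Myl9 called, 19 positive and a median of 0.56. Of the platelet signalling enzymes 22 were tested, 0 called and 20 positive, with a median of 0.47. Beside these medians stand 2970 positive fold changes among all 5898 genes and a median of 0.0059. In the alternatives the median stayed positive in all 20 for receptors (0.095 to 0.55) and signalling enzymes (0.29 to 0.83), and turned negative in 1 of 20 for each of the other lists of this paragraph. The members of Ctrl replicate 1 were far shallower than those of the other libraries, and the part of this in the medians was not tested.

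**Figure D5:**
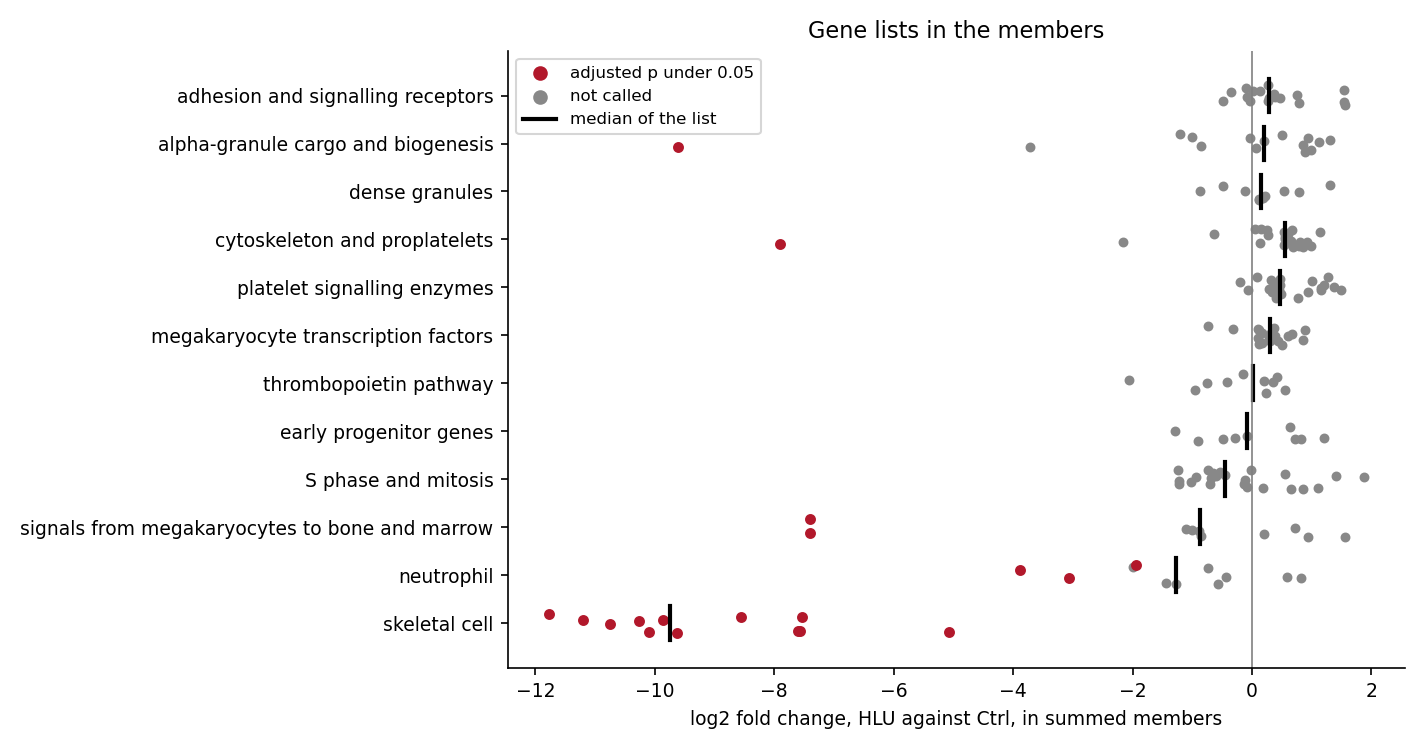
Fitted log2 fold change (HLU against Ctrl) of each tested gene outside the marker rule, by list; red points had an adjusted p under 0.05 in edgeR, grey points did not, and black bars are list medians. The megakaryocyte lists lie near 0 with Sparc, Myl9, Tnfrsf11b and Bmp6 far to the left, where values of genes with 0 HLU UMIs depend on the prior count; the skeletal list lies wholly to the left.

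Among receptors, Itgb3 stood at 372 and 335 CPM in Ctrl and 480 and 718 in HLU, without overlap of the groups (edgeR, log2 fold change 0.76 ± 0.392, adjusted p = 0.768). Clec1b, the receptor for podoplanin, stood at 247 and 125 against 199 and 883 CPM, so that 1 HLU library carried the difference. The tetraspanin gene Cd9 was the most abundant receptor gene, at 2569 and 1270 against 1323 and 1690 CPM. Gp9 stood at 98.6 and 62.3 against 36.7 and 155 CPM, Treml1 at 301 and 307 against 247 and 323, and Itga6, a laminin receptor subunit, at 230 and 292 against 295 and 388. None passed the test. With HLU replicate 1 left out Clec1b did, at a log2 fold change of 2.26, as did 10 other named genes, in a fit that takes the spread of the lone HLU library from Ctrl.

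Among granule genes the same held. Vwf stood at 175 and 115 CPM in Ctrl and 186 and 335 in HLU (edgeR, log2 fold change 0.85 ± 0.451, adjusted p = 0.777), Mmrn1 at 153 and 105 against 201 and 309, and Timp3, an inhibitor of metalloproteinases, at 531 and 407 against 668 and 1362 (edgeR, log2 fold change 1.11 ± 0.434, adjusted p = 0.524). These were not called although the groups did not overlap, as for 18.2% of all genes with HLU higher. Srgn, the proteoglycan that packs granules, stood at 1161 and 982 against 1261 and 823 CPM. Clu (clusterin) stood at 2684 and 254 against 27.1 and 192 CPM (edgeR, log2 fold change -3.72 ± 1.08, adjusted p = 0.217). In Ctrl replicate 1, 326 of its 490 UMIs lay in 1 member, which held 10.8% skeletal UMIs. Without Ctrl replicate 2 or without HLU replicate 1 it was called, in fits that assume the lone library varies like the other group. Of dense granules, Rab27b stood at 811 and 681 against 869 and 750 CPM, Slc35d3 at 345 and 216 against 276 and 238, the tetraspanin Cd63 at 652 and 446 against 403 and 377 and the lysosomal Lamp1 at 433 and 288 against 247 and 146. None of these 4 was called. For Cd63 and Lamp1 both HLU libraries lay below both Ctrl libraries, as for 19.5% of all genes.

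For the cytoskeleton, Tln1 (talin, which activates integrins) stood at 427 and 364 CPM in Ctrl and 285 and 1102 in HLU, and its integrin partner Fermt3 (kindlin-3) at 504 and 345 against 411 and 836. The GTPase genes Cdc42 and Rhoa stood at 498 and 551 against 604 and 481 and at 570 and 546 against 429 and 293. Among signalling genes, Rap1b, the switch of integrin activation, stood at 1550 and 1404 against 2077 and 1801 CPM, Plek (pleckstrin) at 761 and 594 against 598 and 1253, Rgs18 at 619 and 599 against 775 and 933, Rgs10 at 477 and 359 against 510 and 644, and Cavin2, a caveolar coat gene, at 296 and 129 against 339 and 637. None of these 9 genes was called. Both HLU libraries lay below both Ctrl libraries for Rhoa and above them for Rap1b, Rgs18, Rgs10 and Cavin2.

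Transcription factors, the thrombopoietin pathway and progenitor genes held 0 called genes. All 19 transcription factors were tested, 17 with a positive fold change and a median of 0.31, which stayed between 0.21 and 0.41 in 20 alternatives. Gata1 stood at 32.9 and 81.5 CPM in Ctrl and 86.1 and 127 in HLU (edgeR, log2 fold change 0.88 ± 0.525, adjusted p = 0.811), and Nfe2, which drives proplatelet formation, at 131 and 149 against 153 and 160. Mef2c stood at 909 and 700 against 937 and 1066 CPM, Lmo2 at 230 and 546 against 598 and 456 and Runx1 at 340 and 240 against 284 and 417. In the thrombopoietin pathway 10 genes were tested, 5 of them positive, with a median of 0.02 that turned sign in 8 of 20 alternatives (-0.42 to 0.28). There the kinase Pim1 stood at 416 and 163 against 161 and 268 CPM. Of the progenitor genes 9 were tested, 4 positive, with a median of -0.09 that turned sign in 9 of 20 alternatives (-0.54 to 0.53). Among these the mucin Muc13 stood at 126 and 149 against 233 and 400 CPM (edgeR, log2 fold change 1.20 ± 0.431, adjusted p = 0.419), Myb at 131 and 115 against 217 and 167 and Mycn at 93.1 and 240 against 198 and 119. Xiap, the inhibitor of apoptosis that the study follows in other cells, stood at 43.8 and 57.5 against 55.8 and 73.4 CPM and was seen in 55 members (edgeR, log2 fold change 0.35 ± 0.468, adjusted p = 0.933).

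Genes of DNA synthesis and mitosis took 0.127% and 0.309% of member UMIs in Ctrl replicates 1 and 2 and 0.210% and 0.184% in HLU replicates 1 and 2. The difference of -0.0212 percentage points was smaller than the spread within Ctrl (p = 1, two-sided exact permutation test), and it turned to 0.0700 without Ctrl replicate 2. Of 23 genes tested 0 were called, 7 were positive and the median log2 fold change was -0.45. Mki67 stood at 38.3 and 398 CPM against 81.3 and 191, Top2a (topoisomerase) at 38.3 and 297 against 145 and 168, and Tubb5 at 433 and 882 against 698 and 269, and all overlapped. Mki67 was seen in 36 of the 106 members. Both Mki67 and Top2a were seen in 25 (2, 5, 6 and 12 by library). In HLU replicate 2 these members had a median of 37591 UMIs against 15513 in the rest; the part of depth in these counts was not tested.

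Transcripts of the neutrophil list were also found in the members, and their origin was not tested. The list took 1.63% and 1.52% of member UMIs in Ctrl replicates 1 and 2 and 0.533% and 0.877% in HLU replicates 1 and 2, against 6.18%, 8.92%, 18.4% and 17.996% in the other passing barcodes and 6.48%, 9.94%, 16.6% and 4.58% in barcodes under 1000 UMIs. The most abundant gene was S100a9, and at least 5% of UMIs came from the list in 9 members. The difference of -0.872 percentage points (p = 0.333, two-sided exact permutation test, the smallest possible) turned to 0.372 with members called doublets left out. Of 11 genes tested 3 fell, against 126 of 5898 (2.14%) among all genes tested. Ltf (lactotransferrin) gave 39 and 51 UMIs in Ctrl against 23 and 17 in HLU (edgeR, log2 fold change -3.06 ± 0.477, adjusted p = 0.00865). In CPM, Camp (cathelicidin) stood at 767 and 4865 in Ctrl against 228 and 156 in HLU, and Ngp at 991 and 911 against 319 and 177. Of the 1015 Camp UMIs of Ctrl replicate 2, 997 lay in 1 member. With doublets left out the log2 fold changes of Ltf, Camp and Ngp were 0.0282, -0.02 and -0.27, and none was called.

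Other cell types were nearly absent from the members. Monocyte and macrophage genes took 0.248% and 0.187% of UMIs in Ctrl and 0.00812% and 0.00702% in HLU; Fn1 (fibronectin), which skeletal cells also make, gave 491 and 399 of those UMIs in Ctrl against 10 and 0 and fell, as did Vcam1 (12 and 7 against 2 and 2). The complement genes C1qa, C1qb and C1qc were at 0 in all libraries, as was Ccr2, which the rule limits. B cell genes took 0.00186% to 0.0107%, T and NK cell genes 0.00296% to 0.0043%, dendritic cell genes 0.00186% to 0.00984% and basophil and mast cell genes 0.000447% to 0.00143% of member UMIs. Endothelial genes took 0.00827% to 0.0171%, with the defining gene Cdh5 at 0, and erythroid genes, limited by the rule, 0.0076% to 0.024%. In these 6 lists 8 genes were tested and 0 were called.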

How the data were processed

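The authors sequenced 10x Genomics 3′ v3.1 libraries and, per the labels, made the matrices with Cell Ranger 6.0.0 on reference mm10-3.0.0; the deposited values are raw UMI counts per gene and barcode. Submitters' notes also name Seurat 4.1.0. Each count was used as deposited. The members and gene lists were chosen with earlier results of these data known. Member counts were summed per library and fitted over all genes with edgeR 4.0.16 (quasi-likelihood, TMM scaling, filterByExpr, Benjamini-Hochberg adjustment at 0.05) in R 4.3.3 with limma 3.58.1; DESeq2 1.42.0 was an alternative. For shares, libraries were permuted exactly and two-sided. Doublets were called with Scrublet in scanpy 1.11.5, per library, and kept. Intervals and limits cover counting error only. Named genes were the rule genes, list genes with an adjusted p under 0.05 and groups that did not overlap, up to 10 of the largest falls and rises among all genes so called, the 4 most abundant genes of each megakaryocyte list with some named in any case (Vwf, Gata1, Nfe2, Tubb1, Gp9, Itgb3, Tgfb1, Mki67 and Xiap among them), and the 20 genes most enriched in members; a few genes this rule names are not reported here. Kit, Gata2, Car2, Tpm2, the genes called under 1% skeletal UMIs and the genes of the Malat1 profiles were picked after values were seen where the rule does not name them. In simulated sums of 5902 genes, 43 of 200 changed genes at a log2 fold change of 2 and 166 of 200 at 3 were recovered, with 0 and 10 false calls. Alternatives changed the member rule, filter, scaling, tool, replicate block and libraries. Promoters came from RefSeq on GRCm38.p6 and gene positions from GENCODE M21; 30934 of 31053 gene IDs matched.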

Additional observations from a re-analysis of the deposited data

How the results depend on the processing

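The difference in the share of members kept its sign except with blood cells as denominator (-0.155 percentage points). It was 0.357 with members and passing barcodes of at least 3000 UMIs, a limit not planned in advance. After thinning with a marker minimum of 2 UMIs and no monocyte limit it was 0.0746. With members under 1% skeletal UMIs, a limit also not planned, it was 0.270. That limit could only widen the difference, as it removed 16 and 2 Ctrl members, 0 HLU members and nothing from the denominator. Leaving out single libraries gave 0.0494 (without Ctrl replicate 2) to 0.245 (without Ctrl replicate 1). Where 1 library is left in a group, it is assumed to vary like the other group. The neutrophil share turned to 0.372 with doublets left out, and without single libraries it ranged from -1.04 to -0.700. The difference in median UMIs ranged from -688, without Ctrl replicate 1, to 16497.5. The S phase and mitosis share turned to 0.00745 with no monocyte gene limit and ranged from -0.112 to 0.0700 without single libraries. The count of 126 called genes became 64 with marker genes of at least 0.1% of UMIs, 71 with no monocyte gene limit, 54 with doublets left out, 12 with members under 1% skeletal UMIs, 394 with no filter on low counts and 0 with at least 10 counts in every library, and ranged from 78 (without HLU replicate 2) to 384 (without HLU replicate 1); the cause was not tested beyond the samples and genes dropped. Called genes were all lower in HLU except for 84 of the 384, 33 of the 394, 11 of 169 without Ctrl replicate 2, 2 of 137 with the replicate block, 1 of 100 with a marker minimum of 10 UMIs and 1 of the 71. DESeq2 called 134 genes, 120 of them shared. The log2 fold change of Ltf was 0.0282 with doublets left out.

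With the replicate number as a block 137 genes were called, 118 of them shared with the 126. The deviations of same-numbered libraries from their group means had r = -0.0259 over genes, which with 2 libraries per group is 1 independent value, and nothing in the labels ties the numbers to a shared litter or day, so the libraries were treated as sharing only a number.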
